A study of Mus musculus with 6 samples.

Results

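Intestinal epithelial cells carry surface proteins and release cytokines that are read by the lymphocytes living between them, the intraepithelial lymphocytes. Of the 21397 genes measured, 8 were taken as epithelial ligands of these lymphocytes, namely 3 C-type lectin-like genes (Clec2h, Clec2e and Clec2d), 4 butyrophilin-like genes (Btnl1, Btnl2, Btnl4 and Btnl6) and the cytokine gene Il15. They were chosen by function around Clec2h, which was picked because its difference between the groups was among the largest decreases, so the values of Clec2h are a description and were not tested.

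RNA was sequenced from small intestinal organoids of Fpr2f/f mice, in which the gene for formyl peptide receptor 2 (FPR2) is flanked by loxP sites, and no Cre is stated for these samples. Crypts were grown in Matrigel and exposed for 5 days to MMK-1 at 1 μmol/L, a synthetic peptide that activates FPR2, or to 0.1% DMSO alone as the control. Each group had 3 libraries, and by the study's description a sample held organoids from 3 mice, so the spread between libraries is not that between single animals. One label of the MMK-1 samples puts the dose at 1 mM, whereas their protocol text and the study's methods give the micromolar dose used here.

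C-type lectin-like proteins of the Clec2 family, also called Clr proteins, are ligands of NKR-P1 receptors on natural killer cells and some T cells. Butyrophilin-like proteins of the gut epithelium shape the local γδ T cell compartment, and Btnl1 and Btnl6 do so as a pair on the cell surface. Interleukin 15 is carried to lymphocytes on the surface of the epithelial cell by its own receptor α chain and supports their survival.

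The 3 Clec2 genes lay on chromosome 6 and the 4 Btnl genes on chromosome 17 of the mouse build GRCm38. Clec2h (chr6:128662385-128677374) was 414 kb from Clec2e (chr6:129091816-129100903), which was 79.7 kb from Clec2d (chr6:129180615-129186535). Btnl2 (chr17:34354789-34369492), Btnl1 (chr17:34377123-34386162), Btnl4 (chr17:34468410-34477428) and Btnl6 (chr17:34507870-34518776) spanned 164 kb, and Il15 lay at chr8:82331624-82403252. No other RefSeq gene overlapped any of the 8. The coding sequences of Clec2h and Clec2e were 83.5% identical over their aligned bases, and those of Btnl4 and Btnl6 were 90.1% identical, whereas the other pairs of Btnl genes had between 62.2% and 64.4%.

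The upstream sequences of Clec2h and Clec2e are shown because they were nearly the same while the ratio of the levels of these genes differed between the groups. Over 231 aligned bases before the start site they were 95.2% identical, with an unbroken run of 121 shared bases and 38 gap bases left out. The pair was not alone in this. The upstream windows of Btnl4 and Btnl6, not printed, were 91.9% identical over 248 aligned bases, and the ratio of their levels also differed between the groups. Btnl1 and Btnl2 are shown with Clec2h and Clec2e because these 4 windows held the letters AAAGTCC, printed in capitals. They are the core of a motif bound by the villus transcription factors HNF4A and HNF4G. The sequences are RefSeq's on GRCm38.p6, written 5′ to 3′ toward the gene. They cover up to 250 bases before the start, and the end of the window that lay inside the outermost annotated gene span was left off for Btnl1 and Btnl2.

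Clec2h, chr6:128662135-128662384, plus strand: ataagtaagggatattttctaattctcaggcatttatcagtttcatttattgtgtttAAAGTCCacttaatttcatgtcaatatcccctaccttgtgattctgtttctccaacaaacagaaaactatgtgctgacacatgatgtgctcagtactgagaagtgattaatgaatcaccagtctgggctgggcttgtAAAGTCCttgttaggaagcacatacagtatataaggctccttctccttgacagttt
Clec2e, chr6:129100904-129101153, minus strand: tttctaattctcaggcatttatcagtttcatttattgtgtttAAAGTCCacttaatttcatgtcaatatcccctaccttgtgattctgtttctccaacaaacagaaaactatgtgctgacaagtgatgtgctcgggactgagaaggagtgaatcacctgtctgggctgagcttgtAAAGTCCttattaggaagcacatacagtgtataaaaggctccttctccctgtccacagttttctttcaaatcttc
Btnl1, chr17:34376882-34377122, plus strand: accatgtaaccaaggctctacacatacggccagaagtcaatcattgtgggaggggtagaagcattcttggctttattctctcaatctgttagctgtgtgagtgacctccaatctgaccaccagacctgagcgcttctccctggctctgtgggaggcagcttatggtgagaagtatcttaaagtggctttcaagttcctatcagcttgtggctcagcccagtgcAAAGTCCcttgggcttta
Btnl2, chr17:34354572-34354788, plus strand: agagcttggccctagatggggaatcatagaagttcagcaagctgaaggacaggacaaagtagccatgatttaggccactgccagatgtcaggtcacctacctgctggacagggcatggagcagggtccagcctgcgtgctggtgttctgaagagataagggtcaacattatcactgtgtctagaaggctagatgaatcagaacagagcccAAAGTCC

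The letters AAAGTCC, searched on both strands, were present in 4 of the 7 members with a RefSeq window and in 3.58% of all 32851 windows. This core was chosen after the sequences had been seen, and the full motif CAAAGTCCA that contains it was present only in the window of Btnl2 among the members and in 0.384% of all windows. In the windows of Clec2h the core began 193 and 56 bases before the start site, and in those of Clec2e 208 and 75 bases before it. The letters TTTATNG of a CDX motif were found in Clec2h and Clec2e and in 9.81% of all windows. TGANTCA, an AP-1 motif, was found in Clec2h, Clec2e and Btnl2 and in 6.75% of all windows. The letters AGATAA, which GATA factors are known to bind, were found in Btnl2 and in 9.99% of windows. Matches of this kind describe letters and not binding. The windows of Clec2h and Clec2e are nearly the same, as are those of Btnl4 and Btnl6. The counts of members with a match are therefore not counts of separate sequences.

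The authors deposited FPKM, which is the number of fragments on a gene scaled by gene length and library total. The totals computed from the steps of these values lay between 35512739 and 37537463 fragments per library, and the precision they give covers counting error only. All 14 enterocyte markers had a mean above 1 FPKM in the control libraries, as did 7 of 8 stem cell markers. MMK-1 replicate 3 differed from the other MMK-1 libraries along GC content, the share of G and C bases in a transcript, and the values of Clec2e, Slc12a2, Cxcl16, Nectin3, Cxadr, Maf, Hnf4g and Cd68 are also given without it. The limma test, with a threshold of 0.05 on the Benjamini-Hochberg adjusted p, was run on the 10551 genes whose mean reached 1 FPKM, and 24.7% of them passed as lower with MMK-1, 48.5% as higher and 73.2% in either direction. With the libraries scaled to the same upper quartile, 3495 were lower and 4093 higher, against 2606 and 5118 without it, and the median log2 fold change over the tested genes was 0.036 in place of 0.13.

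All 8 ligand genes passed the filter at 1 FPKM, and every one of them was above it in both groups. Apart from Clec2h, 6 of the other 7 passed the limma test as lower with MMK-1, beside the 24.7% of all genes tested, and 0 were higher, beside 48.5%. Without MMK-1 replicate 3, all 6 still passed as lower and Clec2e passed as higher. The median log2 fold change of these 7 was -0.70, against 0.13 for all genes tested, and with upper-quartile scaling it was -0.81. In RNA from whole organoids, fewer cells of a type and less RNA per cell cannot be told apart. The plot of levels by library shows the 8 genes together.

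**Figure D1:**
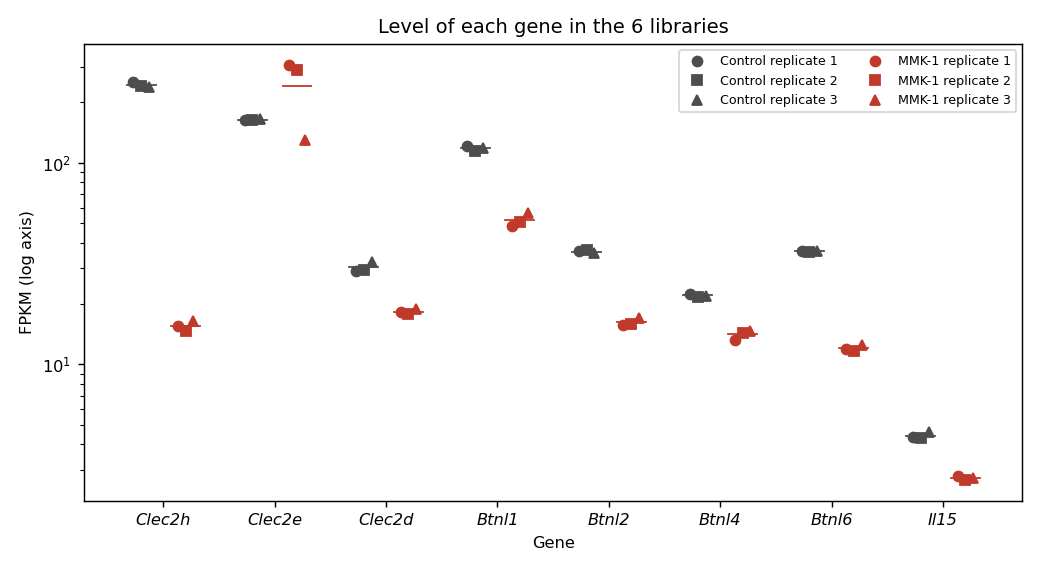
FPKM of the 8 ligand genes on a log axis, with 1 point per library, grey for control and red for MMK-1, marker shapes for replicate numbers and short lines at the mean of 3 libraries. The red points lie below the grey ones in all 3 libraries for every gene except Clec2e, for which 2 MMK-1 libraries lie above the controls and MMK-1 replicate 3, at 129.7 FPKM, lies below them.

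Clec2h encodes Clr-f, a ligand of the receptor NKR-P1G. Its level was 253, 239 and 238 FPKM in the control libraries and 15.4, 14.7 and 16.5 FPKM in the MMK-1 libraries. In fragments these were 20467, 19401 and 19230 against 1182, 1138 and 1323. All 3 MMK-1 libraries lay far below all 3 control libraries, and the replicates of each group lay close together. The mean went from 243 ± 8.25 to 15.5 ± 0.918 FPKM (SD, n = 3), a 15.7-fold lower level. On the log2(FPKM + 1) scale the difference was -3.89, the second lowest of the 10551 genes tested. Of the control levels of all genes tested, 97.4% lay below that of Clec2h.

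Clec2e encodes Clr-a, a close relative whose gene shares the upstream sequence printed above. Its level was 164, 162 and 165 FPKM in the control libraries and 307, 289 and 129.7 FPKM in the MMK-1 libraries. The groups overlapped, because MMK-1 replicates 1 and 2 lay above every control library and MMK-1 replicate 3 lay below every one. The control mean was 164 ± 1.48 FPKM and the MMK-1 mean was 242 ± 97.5 FPKM (SD, n = 3). The log2 fold change was 0.46 with a standard error of 0.275 and did not pass the test (limma adjusted p = 0.159). An exact two-sided permutation test gave p = 0.4. Without MMK-1 replicate 3 the log2 fold change was 0.86 (limma adjusted p = 1.4e-07).

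MMK-1 replicate 3 was lower than the mean of MMK-1 replicates 1 and 2 by a log2 difference of -1.19 for Clec2e, the 10th lowest value of 10551 genes tested. Only 18 of them were at or below -1. For the other 7 ligand genes this difference lay between -0.0033 and 0.18. The longest transcript of Clec2e had 39.6% GC, the lowest of the 8, beside 43.4% for Clec2h, 44.9% for Clec2d and between 49.6% and 52.3% for the others. Over the tested genes, the median difference of MMK-1 replicate 3 was -0.42 for the 205 genes with at most 38% GC and -0.25 for the 381 genes between 38% and 40%, and it was 0.10 above 55%. Control replicate 3 had medians between -0.016 and -0.0023 in the same bins. With the trend on GC content removed from every library, which was chosen after seeing the data, the log2 fold change of Clec2e was 0.11 (limma adjusted p = 0.679). The part of GC content in the value of Clec2e was not tested.

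**Figure D2:**
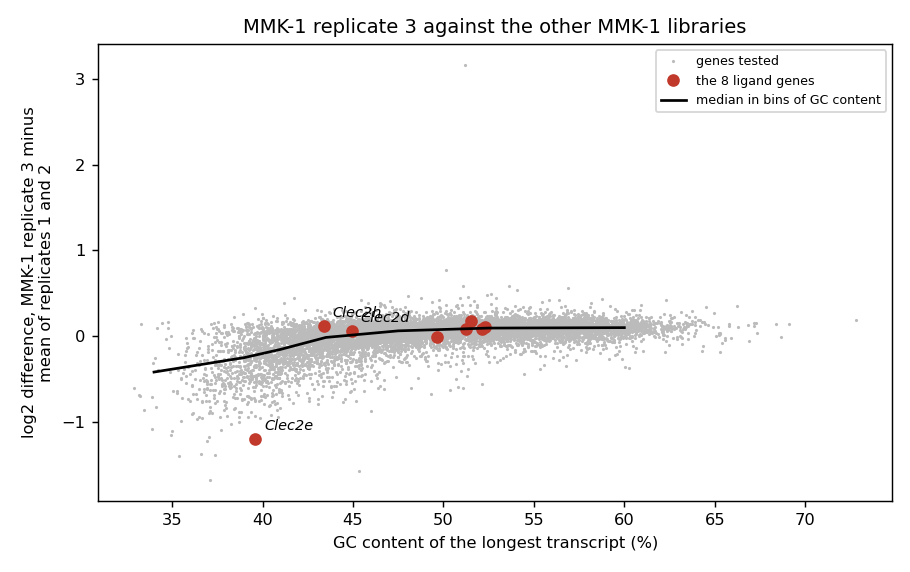
log2 difference of MMK-1 replicate 3 from the mean of MMK-1 replicates 1 and 2 (vertical axis) against the GC content of the longest transcript in percent (horizontal axis), with grey points for genes tested, red points for the 8 ligand genes and a black line for the median in bins of GC content. Clec2e lies at 39.6% GC and -1.19, below the median of -0.25 of genes between 38% and 40% GC, while the other 7 ligand genes lie near 0.

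Clec2d encodes Clr-b, also known as Ocil, a widely expressed ligand of the inhibitory receptor NKR-P1B. Its level was 29.1, 29.4 and 32.3 FPKM in the control libraries and 18.1, 17.7 and 18.8 FPKM in the MMK-1 libraries. Every MMK-1 library lay below every control library. The log2 fold change was -0.70 with a standard error of 0.0515 (limma adjusted p = 4.0e-06). The exact permutation p was 0.1, the smallest that 3 against 3 libraries can give, and the same p was reached by Btnl1, Btnl2, Btnl4, Btnl6 and Il15.

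Clec2h had the largest share of the Clec2 transcripts in the control libraries and the smallest in the MMK-1 libraries. Clec2h made up between 54.6% and 56.7% of the summed FPKM of the 3 genes in the control libraries and between 4.53% and 9.99% in the MMK-1 libraries. Clec2e made up between 36.7% and 37.9% in the control libraries and between 78.6% and 90.1% in the MMK-1 libraries, and Clec2d between 6.54% and 7.42% in control and between 5.32% and 11.4% with MMK-1. The sum itself was 431 to 446 FPKM in control and 165 to 340.3 FPKM with MMK-1, where the lowest value was that of MMK-1 replicate 3. The ratio of Clec2h to Clec2e was 1.49 ± 0.0536 in control and 0.0760 ± 0.0443 with MMK-1 (SD, n = 3). It was 0.127 in MMK-1 replicate 3, and the mean without that library was 0.0505. Of the windows of 100 bases in their transcripts, 0 of 2000 in Clec2e and 4 of 2840 in Clec2h were also found in another gene. The gene that shared the 4 windows with Clec2h was Clec2i, which had at most 14 fragments in any library.

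**Figure D3:**
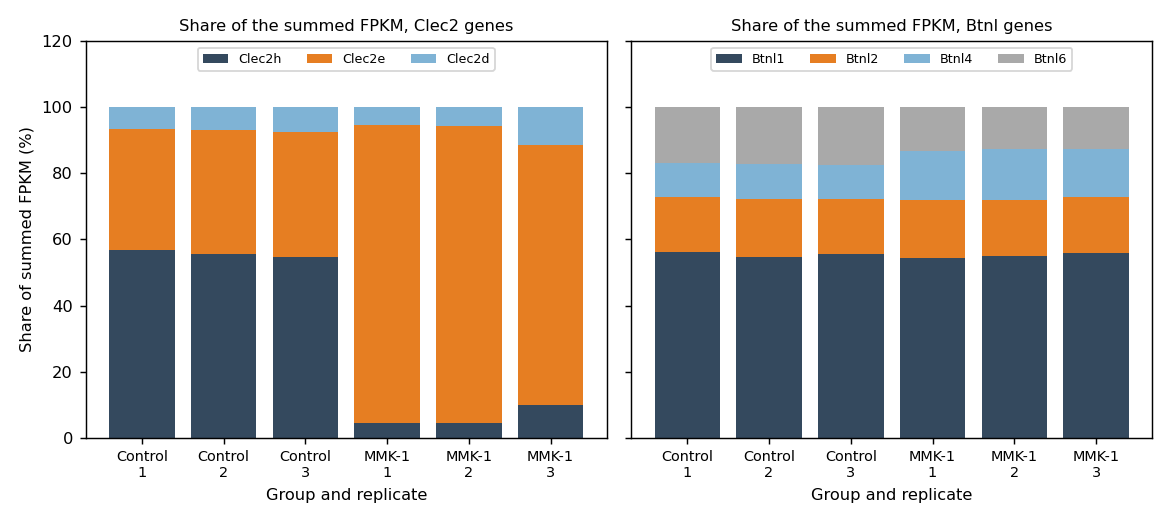
Share of each gene, in percent, in the summed FPKM of the 3 Clec2 genes (left) and of the 4 Btnl genes (right), with 1 stacked bar per library. Clec2h takes between 54.6% and 56.7% of the left bars in control and between 4.53% and 9.99% with MMK-1, while Btnl1 takes between 54.3% and 56.1% of every bar on the right.

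Btnl1 encodes the butyrophilin-like protein that pairs with Btnl6 on enterocytes. It was the Btnl gene with the highest level, at 122, 115 and 118 FPKM in the control libraries and 48.4, 50.8 and 56.1 FPKM in the MMK-1 libraries. Every MMK-1 library was below every control library, with no overlap. The mean was 2.28-fold lower with MMK-1, and the log2 fold change was -1.18 with a standard error of 0.0572 (limma adjusted p = 3.4e-07).

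Btnl6, the partner of Btnl1, had 36.3, 36.0 and 36.7 FPKM in the control libraries and 11.9, 11.6 and 12.5 FPKM in the MMK-1 libraries. The groups were far apart in comparison with the spread within each, which was 0.306 FPKM in control and 0.445 FPKM with MMK-1 (SD, n = 3). The mean was 3.03-fold lower and the log2 fold change was -1.52 with a standard error of 0.0424 (limma adjusted p = 1.6e-08). It ranked 147th from the lowest of the 10551 genes tested. Btnl1 exceeded Btnl6 by 3.25 ± 0.0884 times in control and by 4.32 ± 0.215 times with MMK-1 (SD, n = 3), and the 3 ratios of each group did not overlap.

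Btnl4 is the closest relative of Btnl6 among the 4 in coding sequence. Its level was 22.4, 21.7 and 21.9 FPKM in the control libraries and 13.2, 14.3 and 14.6 FPKM in the MMK-1 libraries. These groups did not overlap either, with a log2 fold change of -0.61 and a standard error of 0.0481 (limma adjusted p = 6.0e-06). The ratio of Btnl6 to Btnl4 was 1.65 ± 0.0284 in control and 0.854 ± 0.0420 with MMK-1 (SD, n = 3), so that Btnl6 was the higher of the pair in all 3 control libraries and the lower in all 3 MMK-1 libraries. In Btnl4 3.16% of transcript windows were also found in the pseudogenes Btnl5-ps and Btnl7-ps, and in Btnl6 1 of 1652 windows was shared.

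Btnl2 encodes a butyrophilin-like protein known to restrain T cell activation. Its level was 36.4, 36.7 and 35.6 FPKM in the control libraries and 15.6, 15.8 and 17.0 FPKM in the MMK-1 libraries. All MMK-1 values lay below all control values, and the log2 fold change was -1.12 with a standard error of 0.0454 (limma adjusted p = 1.2e-07).

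The 4 Btnl genes summed to between 209 and 217 FPKM in the control libraries and between 89.1 and 100.3 FPKM in the MMK-1 libraries. The share of Btnl1 in this sum overlapped between the groups, with 54.8% to 56.1% in control and 54.3% to 56.0% with MMK-1. The share of Btnl4 was 10.3% to 10.4% in control and 14.6% to 15.5% with MMK-1, and that of Btnl6 was 16.8% to 17.3% and 12.4% to 13.3%.

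Il15 encodes interleukin 15 and had the lowest level of the 8, at 4.35, 4.32 and 4.59 FPKM in the control libraries and 2.80, 2.66 and 2.72 FPKM in the MMK-1 libraries. Between 456 and 482 fragments per control library and between 269 and 284 per MMK-1 library stood behind these values. The groups did not overlap, and the log2 fold change was -0.54 with a standard error of 0.0503 (limma adjusted p = 1.7e-05).

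The thresholds in the study's methods, a 2-fold change together with an unadjusted p of no more than 0.05, were met in the lower direction by Btnl1, Btnl2 and Btnl6 of the 7 genes other than Clec2h, and by 3.65% of all genes tested. In the higher direction 0 of the 7 met them, beside 3.39%. Besides Clec2h, all MMK-1 values lay below all control values in 6 of the 7 genes, beside 26.3% of all genes tested in that direction and 76.8% in either. Leaving out 1 library at a time moved the fold change of Clec2e most, as the plot of fold changes shows, while that of Btnl1 lay between -1.24 and -1.13 and that of Btnl6 between -1.55 and -1.50.

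**Figure D4:**
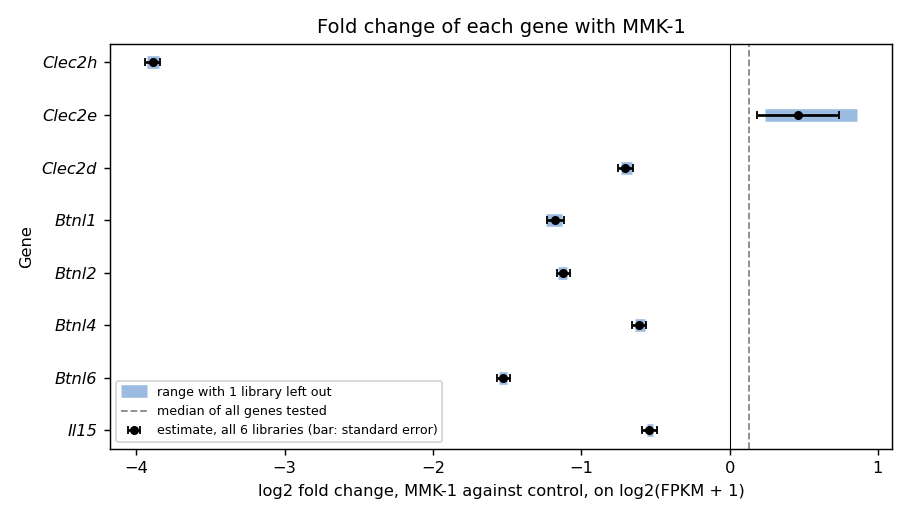
log2 fold change of each ligand gene with MMK-1 on log2(FPKM + 1), with black points for the estimate from 6 libraries, black bars for its standard error, blue bars for the range when 1 library is left out and a dashed line at the median of all genes tested, 0.13. Clec2h lies at -3.89, 6 genes lie between -1.52 and -0.54, and the blue bar of Clec2e runs from 0.24 to 0.86.

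The order of the levels differed between the groups. In control it was Clec2h, Clec2e, Btnl1, then Btnl6 and Btnl2, whose values overlapped, then Clec2d, Btnl4 and Il15. With MMK-1 it was Clec2e, Btnl1, Clec2d, Btnl2, Clec2h, Btnl4, Btnl6 and Il15, in the same order in all 3 libraries. Of the neighbours in that order, Btnl2 and Clec2h did not differ beyond their spread, with means of 16.1 ± 0.761 and 15.5 ± 0.918 FPKM (SD, n = 3), and the values of the other neighbours did not overlap.

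Markers of the enterocyte, the absorptive cell of the villus, were mostly lower. Of 14 enterocyte markers, 13 passed the limma test as lower, beside 24.7% of all genes tested, and 1 as higher, with a median log2 fold change of -1.08. Anpep, a brush border peptidase, fell by 2.84 on the log2 scale, Apoa1, an apolipoprotein, fell by 2.62, and Fabp2, a fatty acid binding protein, fell by 2.00 (limma adjusted p = 1.2e-09, 1.2e-09 and 1.1e-08). Fabp1 was the exception at 0.17 (limma adjusted p = 0.0140), which did not pass with upper-quartile scaling (limma adjusted p = 0.272). All 7 stem cell markers tested were higher, beside 48.5% of all genes tested, with a median of 1.80, led by Olfm4 at 5.02, Lgr5 at 2.86 and Slc12a2 at 1.88 (limma adjusted p = 2.8e-10, 3.2e-09 and 6.9e-08). MMK-1 replicate 3 stood below the other MMK-1 libraries in Slc12a2, at 74.9 FPKM beside 88.9 and 89.5, and without it the log2 fold change was 1.96. The part of a changed share of enterocytes in the levels of the ligand genes was not tested.

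Ratios to Vil1, the gene of the microvillus protein villin, which fell by 1.21 on the log2 scale (limma adjusted p = 5.7e-08), were computed after the values had been seen and carry no test. The ratio of Btnl1 to Vil1 was 0.209 ± 0.00568 in control and 0.211 ± 0.00677 with MMK-1, with overlapping values (SD, n = 3). That of Btnl2 was 0.0641 ± 0.000607 and 0.0659 ± 0.000657, and its values did not overlap between the groups. Those of Btnl4, Clec2d and Il15 were 1.48, 1.39 and 1.43 times as high with MMK-1 as in control, whereas those of Btnl6 and Clec2h were 0.762 and 0.147 times as high. For Btnl1 and Btnl2 this factor was 1.01 and 1.03. These factors depend on the marker taken as denominator, and Vil1 was one whose fall was close to that of Btnl1 and Btnl2. Over all 14 enterocyte markers the factor of Btnl1 ran from 0.388 with Fabp1 to 3.17 with Anpep, with 7 markers giving a value below 1 and 7 above. That of Btnl6 ran from 0.292 to 2.39, with 8 below 1. Clec2h was below 1 with all 14 markers, from 0.0564 to 0.462. Since Clec2h was picked for its fall, this was set by the choice, as the lowest marker, Anpep, fell less. Clec2e was above 1 with all 14, from 1.33 to 10.9, in means that MMK-1 replicates 1 and 2 raised. In MMK-1 replicate 3 Clec2e was at 129.7 FPKM, below every control library, while Fabp1 was at 2659 FPKM, above every control library. The ratio of Clec2e to Fabp1 in that library thus lay below every control ratio.

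The genes whose values over the 6 libraries were nearest to each ligand gene were taken by the root mean square difference of log2(FPKM + 1) from the gene's own control mean, as a description. Nearest to Clec2h were Slc15a1, the intestinal peptide transporter, at a difference of 0.323, then Mt4, Sardh, S100g and Reg3a, the last at 0.601. Slc15a1 had means of 50.2 FPKM in control and 3.73 FPKM with MMK-1. Nearest to Clec2e were Zfp943, Lypla1 and Gm7072, from 0.0805 to 0.110, and nearest to Clec2d were Lipa, Tapbp and Slc37a4. Cdkn2b, Akr1c12 and Cdhr2 were nearest to Btnl1, and Cyp2d26, Nostrin and 0610005C13Rik to Btnl2. Abcd3, Pcsk5 and Dgat2 were nearest to Btnl4, Tm4sf5, Pbld2 and Cyp4f16 to Btnl6, and Slc48a1, Gskip and Prdx5 to Il15. For members other than Clec2h and Clec2e these differences lay between 0.0177 and 0.0364.

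Of 6 tested genes that present and relay interleukin 15, 3 were lower, beside 24.7% of all genes tested, and 1 was higher, beside 48.5%, with a median log2 fold change of -0.18. Jak3, a kinase of the common γ chain, had 5.58, 5.43 and 5.27 FPKM in control and 2.99, 2.53 and 3.12 FPKM with MMK-1. Its log2 fold change was -0.73, beside -0.26 for the signal transducer Stat5a and -0.25 for Il15ra, the receptor α chain that carries the cytokine (limma adjusted p = 1.5e-05, 0.0104 and 0.00521). In limma-voom on fragments those of Stat5a and Il15ra were -0.43 and -0.39. The kinase Jak1 was higher by 0.23 (limma adjusted p = 0.000818), or 0.12 with upper-quartile scaling and 0.11 with the GC trend removed, and Stat3 and Stat5b did not pass (limma adjusted p = 0.487 and 0.189). With upper-quartile scaling 5 of the 6 were lower. The ratio of Il15 to Il15ra was 2.22 ± 0.213 in control and 1.79 ± 0.0455 with MMK-1 (SD, n = 3). Il2rb and Il2rg, the receptor chains of the responding lymphocyte, had at most 1 fragment in any library.

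Among other epithelial cytokines and chemokines that act on lymphocytes, 3 of 5 tested were lower, beside 24.7% of all genes tested, and 2 were higher, beside 48.5%. Ccl25, the chemokine that draws lymphocytes to the small intestine, had 218, 208 and 205 FPKM in the control libraries and 92.4, 90.5 and 100.5 FPKM in the MMK-1 libraries. Its log2 fold change was -1.15, and those of Ccl20 and Il18 were -0.66 and -0.62 (limma adjusted p = 1.7e-07, 3.6e-05 and 4.4e-05). The chemokines Ccl28 and Cxcl16 were higher by 0.32 and 0.28 (limma adjusted p = 0.00127 and 0.0115). The call of Ccl28 was lost with the GC trend removed (limma adjusted p = 0.772) and that of Cxcl16 with upper-quartile scaling (limma adjusted p = 0.0579). Without MMK-1 replicate 3 the log2 fold change of Cxcl16 was 0.19, and with the GC trend removed that of Ccl20 was -1.04. Il7 was below the filter, with 24, 17 and 24 fragments in control and 3, 0 and 3 with MMK-1.

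Most tested NKG2D and nonclassical MHC ligands were lower. Raet1e, the single tested ligand of the activating receptor NKG2D, had means of 10.5 ± 0.589 FPKM in control and 4.11 ± 0.126 FPKM with MMK-1 (SD, n = 3), and its log2 fold change was -1.17 (limma adjusted p = 2.3e-07). Of 6 nonclassical MHC genes tested, 5 were lower, beside 24.7% of all genes tested, and 1 was higher, with a median of -1.07. H2-T3, which encodes the thymus leukemia antigen that binds CD8αα on these lymphocytes, had 67.5, 66.0 and 63.2 FPKM in control and 15.3, 15.8 and 17.7 FPKM with MMK-1. Its log2 fold change was -1.95, beside -1.88 for H2-Q2 and -1.09 for H2-T23, which encodes Qa-1 (limma adjusted p = 2.5e-08, 6.1e-09 and 7.1e-07). H2-Q10 was the exception at 0.23 (limma adjusted p = 0.000909), or 0.12 with upper-quartile scaling. H2 genes share sequence with one another, and how reads that match several of them were counted is not given in the sources used here.

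Of 9 adhesion and checkpoint ligands tested, 6 were higher, beside 48.5% of all genes tested, and 1 was lower, with a median of 0.30. With upper-quartile scaling 5 were higher and 2 lower, and the median was 0.19. The nectins Nectin2 and Nectin3 were higher by 0.94 and 0.63 and the junction protein Cxadr by 0.62 (limma adjusted p = 5.6e-07, 0.000741 and 0.000646). MMK-1 replicate 3 stood below the other MMK-1 libraries in Nectin3, at 17.6 FPKM beside 24.4 and 24.3, and in Cxadr, at 17.0 FPKM beside 23.6 and 22.7. Without it their log2 fold changes were 0.78 and 0.76, and with the GC trend removed they were 0.48 and 0.36. Icosl, the costimulatory ligand, fell by 0.51 on the log2 scale (limma adjusted p = 9.6e-05). Of a list of butyrophilin relatives that also held the B7 family gene Cd276, 8 were in the table and Cd276 alone reached the filter, higher by 0.64 on the log2(FPKM + 1) scale (limma adjusted p = 0.000575). Its log2 fold change was 1.20 with a pseudocount of 0.1 and 1.33 in limma-voom on fragments, and its mean level was 2.40 times as high with MMK-1 as in control. Btn1a1 and Btn2a2 were below the filter, with 3, 4 and 7 against 33, 31 and 18 fragments and with 1, 1 and 0 against 19, 34 and 20 fragments. Of the other Clec2 genes 0 reached the filter, and Clec2f and Clec2g were at 0 in all 6 libraries, as was Skint3 of the butyrophilin relatives and H60c of the NKG2D ligands.

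**Figure D5:**
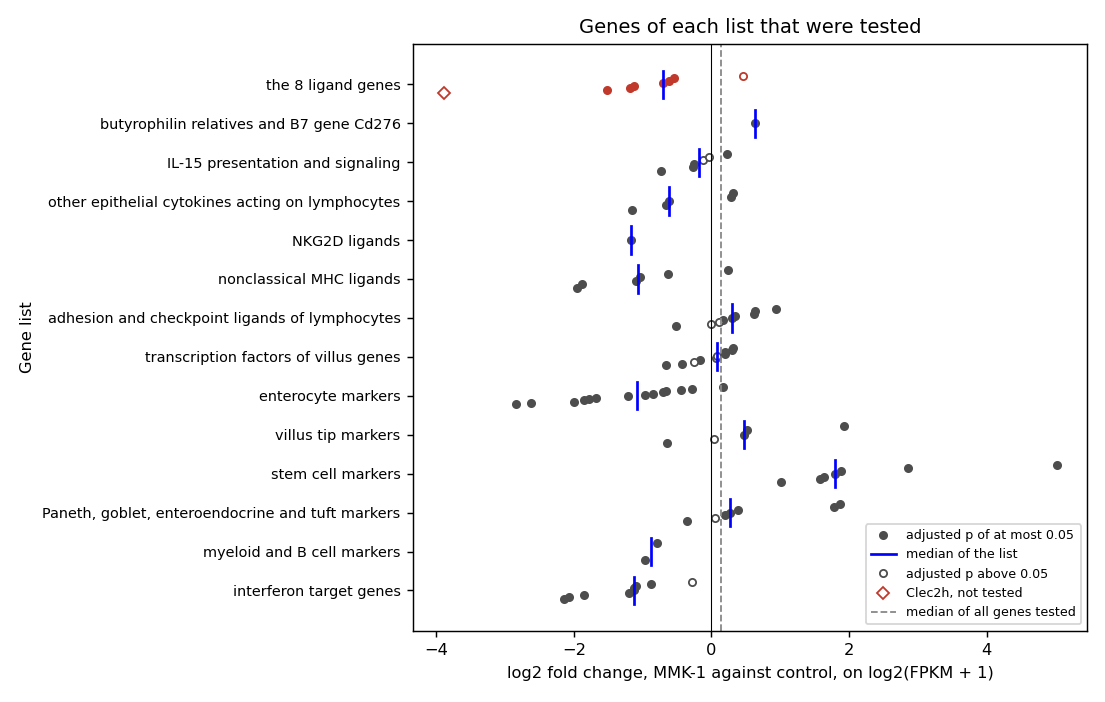
log2 fold change with MMK-1 on log2(FPKM + 1) of every tested gene in each list, with filled points for genes past the limma test, open points for those that did not pass, an open diamond for Clec2h, a blue bar at the median of the list (for the ligand genes, of the 7 others) and a dashed line at the median of all genes tested. Medians lie at -0.70 for the ligand genes other than Clec2h, -1.07 for nonclassical MHC ligands, -1.08 for enterocyte markers, -1.13 for interferon target genes and 1.80 for stem cell markers.

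Of 10 transcription factors of villus genes tested, 3 were lower and 4 higher, shares near the 24.7% and 48.5% of all genes tested. Maf, Vdr and Irf1 were at -0.66, -0.43 and -0.16, and Cdx1, Cdx2 and Ahr were at 0.31, 0.30 and 0.20 (limma adjusted p = 0.00107, 4.2e-05, 0.0442, 0.000498, 0.000246 and 0.0218). With upper-quartile scaling 2 of the 10 were higher. MMK-1 replicate 3 stood below the other MMK-1 libraries in Maf, at 3.39 FPKM beside 5.39 and 4.82, and without it the log2 fold change of Maf was -0.50. The call of Irf1 was lost without Control replicate 1 or 2, without MMK-1 replicate 1 or 2, with the replicate block, in limma-voom and over every gene above 0, with limma adjusted p from 0.0602 to 0.165. That of Ahr was lost with the GC trend removed (0.06, limma adjusted p = 0.451) and with upper-quartile scaling (0.11, limma adjusted p = 0.176). It was also lost over every gene above 0, without Control replicate 2 and without MMK-1 replicate 1 or 2, with limma adjusted p from 0.0527 to 0.0806. Cdx1 was at 0.13 with the GC trend removed and at 0.20 with upper-quartile scaling, and Cdx2 at 0.19 with the latter. Hnf4a and Hnf4g, which encode the factors whose motif core is capitalized above, did not pass (limma adjusted p = 0.188 and 0.202). The values of Hnf4g were 92.0, 92.2 and 90.3 FPKM in control and 93.2, 88.0 and 54.2 FPKM with MMK-1, of which MMK-1 replicate 3 alone stood apart, and without it the log2 fold change of Hnf4g was -0.014 (limma adjusted p = 0.691).

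Markers of lymphocytes themselves were near 0. Of 22 T and NK cell markers 10 were in the table, 0 reached the filter, and their summed level lay between 0.0646 and 0.124 FPKM in control and between 0.290 and 0.546 FPKM with MMK-1. The difference was mostly that of Lck, a kinase of T cells, with 1, 0 and 1 fragments in control and 37, 19 and 22 with MMK-1. The defining T cell gene Cd3e had at most 1 fragment and the leukocyte gene Ptprc at most 3 fragments in any library. Of the myeloid and B cell markers 2 were tested, and Cd68 and Itgam were both lower, beside 24.7% of all genes tested. Their log2 fold changes were -0.96 and -0.79 (limma adjusted p = 0.000146 and 9.2e-06). In limma-voom on fragments these were -1.49 and -1.33. MMK-1 replicate 3 had 75 fragments of Cd68, beside 41 and 41 in the other MMK-1 libraries, and without it the log2 fold change of Cd68 was -1.11. Below the filter, Csf1r had 20, 23 and 23 fragments in control and 0, 1 and 2 with MMK-1, whereas Cd14 had 36, 33 and 54 in control and 81, 68 and 81 with MMK-1, and neither overlapped between the groups. The sum of this list was between 5.98 and 7.03 FPKM in control and between 2.94 and 4.21 FPKM with MMK-1, while Itgax was at 0. Stromal and endothelial markers summed to between 1.26 and 1.41 FPKM in control and between 0.424 and 0.691 FPKM with MMK-1, and 0 reached the filter. Most of that difference was Pdgfrb, with means of 1.10 and 0.265 FPKM, and the other genes of the list were near 0. The part of these cells in the levels of the ligand genes was not tested.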

How the data were processed

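RNA from 6 organoid libraries, 3 treated with MMK-1 and 3 with DMSO, was sequenced. The authors deposited FPKM values for 21397 genes. Per the labels, HISAT2, HTSeq, R 3.2.0, DESeq2 and the build mm10 were used in the processing; their roles, the annotation and the use of strand are not given in the sources used here. Whole fragments were recovered from the steps of the FPKM values within 0.05 for 100% of genes above 0, and 99.7% of each total lay on listed genes.

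The design allowed for counts or FPKM, and the test for FPKM was used, limma-trend (limma 3.58.1, R 4.3.3) with a pseudocount of 1 on the log2 scale, for the 10551 genes whose mean reached 1 FPKM, adjusted by the Benjamini-Hochberg method over all of them. Fold changes on this scale understate those of low genes. Groups came from the labels, and libraries were not paired, since their numbers mark no stated batch. The study describes each sample as organoids from 3 mice and its data in general as independent experiments, but the sources used here do not say how the replicate libraries were separated, so p-values measure the spread between these libraries, which may be technical. The 8 genes and the lists were chosen with earlier results of these data known. Named from each list were, of the genes past the adjusted p threshold of 0.05, the 3 that rose most and the 3 that fell most, and genes at 0; other list genes, and the fragments of genes below the filter, were named after their values were seen. The 5 genes nearest to Clec2h and the 3 nearest to each other member were named for likeness. Single genes were tested by exact two-sided permutation.

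Sequences and positions are RefSeq's on GRCm38.p6, and coding sequences, shared windows and GC content come from GENCODE transcripts, which gave a GC content for 96.3% of genes tested. Alternatives covered scaling, pseudocount, filter, unit, replicate block, leaving out each library and GC content. The other steps used Python 3.11.15 (biopython 1.88, statsmodels 0.14.6, scipy 1.17.1, pandas 2.3.3, numpy 2.4.6, matplotlib 3.10.9).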

Additional observations from a re-analysis of the deposited data

How the results depend on the processing

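Over 13 alternatives, 90 of 91 comparisons for the 7 ligand genes other than Clec2h kept their direction and their side of the adjusted p threshold in limma, and the exception was Clec2e without MMK-1 replicate 3. The count of ligand genes that passed as higher was 0 to 1 when 1 library at a time was left out. For the 45 other genes named from the lists, 562 of 583 comparisons stayed on their side, 21 lost the call and 0 reversed; these were values of Ccl28, Cxcl16, Irf1, Ahr and Fabp1. Cd276 without MMK-1 replicate 3 and Egfr without MMK-1 replicate 2 were below the filter and gave no value. The number of all genes lower by at least 2-fold, 385, was 818 over every gene above 0 with a pseudocount of 0.1 and 1144 in limma-voom on fragments, which called 3264 genes lower and 6216 higher by adjusted p. The number higher by at least 2-fold, 358, was 676 with a pseudocount of 0.1, 1097 over every gene above 0 with that pseudocount, 1751 in limma-voom and 201 with the GC trend removed. By adjusted p, 3630 genes were higher and 3818 lower with the GC trend removed, and upper-quartile scaling gave 256 genes higher and 459 lower by at least 2-fold. With the replicate number as a block, 7567 genes passed in place of 7724 and no call of the 7 ligand genes changed, while that of Irf1 was lost (limma adjusted p = 0.0813). The deviations of libraries that share a number had correlations across genes of 0.0253, -0.040 and 0.0279, and not every library correlated best with its own number. Such correlations, over 3 libraries per group, cannot tell whether libraries with the same number shared a batch or mice. A pseudocount of 0.1 moved the log2 fold changes of the low genes Cd276, Egfr, Stat5a, Itgam, Isg15 and Ifit3 away from 0, to 1.20, 0.84, -0.41, -1.25, -4.08 and -4.52. For Clec2f and Clec2g, at 0 in all libraries, a difference was not detectable at this depth.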

Other observations

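Interferon target genes were lower with MMK-1 in 8 of 9 tested and higher in 0, with a median log2 fold change of -1.13, where 24.7% of all genes tested were lower. Isg15, a ubiquitin-like protein, had 3.00, 4.65 and 4.67 FPKM in control and 0.186, 0.147 and 0.107 FPKM with MMK-1. Its log2 fold change was -2.14, beside -2.07 for Ifit3 and -1.85 for Irf7 (limma adjusted p = 1.2e-06, 3.7e-08 and 7.6e-08), and Psmb8 did not pass (limma adjusted p = 0.0870). The added 1 FPKM compresses the values of genes this low, and with a pseudocount of 0.1 they were -4.08 for Isg15, -4.52 for Ifit3 and -2.03 for Irf7, so that the order of Isg15 and Ifit3 changed. With MMK-1, 5, 4 and 3 fragments stood behind Isg15 and 3, 6 and 7 behind Ifit3, and the mean FPKM was 28.0-fold and 62.9-fold lower than in control.

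Of 5 villus tip markers tested, 3 were higher and 1 was lower, shares near the 48.5% and 24.7% of all genes tested. Fos, an AP-1 subunit, had 3.36, 3.06 and 3.13 FPKM in control and 14.4, 15.0 and 15.3 FPKM with MMK-1, and its difference was 1.93 on the log2 scale, beside 0.52 for Junb and 0.47 for Egfr (limma adjusted p = 1.0e-08, 3.0e-05 and 0.000152), which were 0.32 and 0.30 with the GC trend removed, while Egfr was 0.84 with a pseudocount of 0.1. Creb3l3, an enterocyte factor of lipid metabolism, fell by 0.64 on the log2 scale (limma adjusted p = 3.2e-06). Of 7 Paneth, goblet, enteroendocrine and tuft markers tested, 5 were higher, beside 48.5% of all genes tested, and 1 was lower, beside 24.7%. Lyz1 and Mmp7 of Paneth cells were higher by 1.87 and 1.78 and Tff3 of goblet cells by 0.38, whereas Muc2 of goblet cells fell by 0.35 on the log2 scale (limma adjusted p = 5.1e-09, 2.0e-07, 0.000192 and 0.000222).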
